A study of Mus musculus with 6 samples.

Results

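Ccr7 positive naive-like CD8 T cells of the mouse kidney were taken as the barcodes of the CD8 libraries with at least 500 detected genes, at most 20% mitochondrial UMIs (unique molecular identifiers, 1 per captured transcript molecule), at least 1 UMI of Cd3d, Cd3e or Cd3g, and at least 1 UMI of Ccr7. This rule held for 4143 of 16098 Cd3-positive CD8 barcodes, in a series of 54039 barcodes. Of these, 1750 of 9685 came from the control CD8 library and 2393 of 6413 from the IR CD8 library. They were compared with the Ccr7-negative Cd3 barcodes of the same library, 7935 in control and 4020 in IR. The members were thus selected on a measured value, the Ccr7 count. Ccr7 levels and the contrasts of Ccr7 positive with Ccr7 negative cells are given as descriptions. Naive-like is used as a label only. The study reported no naive T cell cluster and annotated its clusters enriched in Ccr7 and Il7r as central memory. Whether the cells described here were naive or central memory was not tested.

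Both CD8 libraries came from kidneys of male wild-type C57BL/6J mice aged 7 to 8 weeks. In the control group the kidneys were normal, and in the IR group both kidneys had undergone 30 min of ischemia followed by reperfusion, with serum creatinine read at 24 h. Kidney cells positive for CD45 and TCRβ were sorted by flow into CD4, CD8 and DN (CD4-negative and CD8-negative) T cells, with 1 library made for each of the 6 groups. The sources used here do not give how many mice were pooled or when the sorted kidneys were taken. Since there was 1 library per group, no difference has a replicate check, no test was run, and the 95% intervals cover counting error only.

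CCR7 is the chemokine receptor that draws naive and central memory T cells into lymph nodes along CCL19 and CCL21. A naive T cell has not yet met its antigen. It keeps the transcription factors LEF1, TCF7 and SATB1, the survival receptor IL7R and S1PR1, the receptor for leaving lymphoid tissue, while KLF2 maintains S1pr1 transcription. After activation a CD8 T cell loses these and gains granzymes, chemokines such as CCL5, and the integrins and receptors that hold it in tissue, so naive and memory or effector transcripts are usually seen in separate cells. DAPL1 is a marker transcript of naive and early memory CD8 T cells.

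The promoters of genes that were higher in the Ccr7 positive cells of both libraries were searched for short motifs, and 3 windows with a match are printed as examples. Windows ran from 250 bases before to 50 after a RefSeq transcript start (GRCm38.p6), and are written 5′ to 3′ on the gene's strand. Capitals mark a match on either strand to the KLF letters GGGTGGG or the forkhead letters TGTTTAC, the families of KLF2 and FOXO1. Dapl1 and Lef1 are shown as the markers of these cells, and Klf2 as the regulator of S1pr1 that was higher in the same cells. Dapl1 lies at chr2:59484403-59484702 on the plus strand and holds the forkhead letters on its other strand. Lef1 lies at chr3:131110047-131110346 on the plus strand and holds the KLF letters on its other strand. Klf2 lies at chr8:72318812-72319111 on the plus strand and holds the KLF letters as written.
Dapl1: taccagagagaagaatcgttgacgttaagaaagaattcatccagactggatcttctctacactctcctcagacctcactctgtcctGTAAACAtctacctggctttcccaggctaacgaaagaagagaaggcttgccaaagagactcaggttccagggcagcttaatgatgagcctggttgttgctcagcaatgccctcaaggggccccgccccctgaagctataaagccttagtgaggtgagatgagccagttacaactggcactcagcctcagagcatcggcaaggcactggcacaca
Lef1: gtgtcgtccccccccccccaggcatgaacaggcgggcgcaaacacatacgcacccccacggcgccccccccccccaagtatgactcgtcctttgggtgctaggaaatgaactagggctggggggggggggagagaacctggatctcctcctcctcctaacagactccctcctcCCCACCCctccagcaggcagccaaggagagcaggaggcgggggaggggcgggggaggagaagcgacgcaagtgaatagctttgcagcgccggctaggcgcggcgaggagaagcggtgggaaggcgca
Klf2: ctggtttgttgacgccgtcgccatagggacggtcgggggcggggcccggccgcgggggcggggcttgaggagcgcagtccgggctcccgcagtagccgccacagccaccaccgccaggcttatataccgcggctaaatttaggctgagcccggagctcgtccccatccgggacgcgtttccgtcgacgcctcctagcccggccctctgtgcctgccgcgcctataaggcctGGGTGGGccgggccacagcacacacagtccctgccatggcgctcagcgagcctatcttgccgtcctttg
Of the 4 Lef1 windows, 3 held the KLF letters, and the printed one shared its match with another window that overlapped it. The windows of Igfbp4, Il7r and Actn1 held none of the motifs. The window of Gzma, which was lower in the Ccr7 positive cells, also held the KLF letters.
The KLF letters were in 29.7% of the 101 promoters matched to 70 of the 95 genes higher in both libraries. They were in 17.5% of all 32851 promoters, in 20.1% of the promoters of genes at 10 CPM or more, and in 16.8% of the 155 promoters matched to 127 of the 170 genes lower in both libraries. The forkhead letters were in 4.95% of the promoters of the higher genes, in 3.65% of all promoters, in 2.88% of those of genes at 10 CPM or more and in 3.87% of those of the lower genes. The TCF and LEF letters CTTTGAT were in 1.98%, 3.73%, 2.47% and 0.645%, respectively. Only 5 promoters of the higher genes held the forkhead letters and 2 the TCF and LEF letters. These shares describe letters in a window, and no binding was measured.

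Levels are given as CPM, the counts of a gene scaled to a fixed total of the UMIs summed over a pool of cells, without mitochondrial genes, ribosomal protein genes and Malat1. The 2 pools of Ccr7 positive cells held 12534675 UMIs in control and 2716322 in IR on this scale, and the Ccr7 negative pools 42520747 and 4670632. Depth per cell differed strongly. The median was 9820 UMIs in Ccr7 positive and 6459 in Ccr7 negative control cells, and 1957 and 1727 in IR. Ribosomal protein genes took 29.8% and 20.5% of UMIs in control and 46.9% and 38.9% in IR. Among the Ccr7 positive cells, 11.0% of control and 7.61% of IR cells belonged to the deepest 5% of barcodes in their library. Of these Ccr7 positive cells, 22 and 9 had a barcode sequence that another library of the same condition also held. A gene was called higher or lower where it reached 10 CPM in the higher pool and differed at least 2-fold, and ratios are given as log2.

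Ccr7 itself (chromosome 11, 99144196 to 99155077, minus strand, GRCm38) stood at 353 CPM (343 to 364) in the Ccr7 positive cells of control and 1749 CPM (1699 to 1799) in those of IR, and at 0 in the other cells by the rule. In control, 749 cells had 1 Ccr7 UMI, 356 had 2 and 645 had 3 or more. In IR, the numbers were 1169, 606 and 618. Because deeper cells reach 1 UMI more easily, each Cd3 cell was also thinned to 500 UMIs. At that equal depth Ccr7 was found in 3.72% (3.35 to 4.11) of control CD8 cells and in 25.0% (24.0 to 26.1) of IR CD8 cells, against 18.1% and 37.3% without thinning. DN cells, which lack nearly all Cd8b1, gave 0.0537% (0.0174 to 0.125) in control and 0.506% (0.309 to 0.781) in IR at 500 UMIs, and 0.440% and 0.683% without thinning at a median of 8554 and 1520 UMIs. CD4 cells gave 1.27% (1.06 to 1.52) in control and 10.2% (9.61 to 10.8) in IR at 500 UMIs. The Ccr7 share of the CD8 libraries was thus above that of the DN and CD4 libraries in both conditions, and it was higher in IR than in control in all 3 subsets. Fewer cells with Ccr7 and less Ccr7 RNA per cell cannot be told apart at 500 UMIs.

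Lef1 and Dapl1 are the other markers that came with the label, so their levels describe the cells and are no independent check of it. Lef1 (chromosome 3, 131110471 to 131224356) stood at 1377 CPM (1356 to 1398) in Ccr7 positive and 296 (291 to 301) in Ccr7 negative control cells. In IR it stood at 921 CPM (886 to 958) and 420 (402 to 439). The log2 ratio was 2.22 in control and 1.13 in IR, and the intervals did not overlap in either library. Dapl1 (chromosome 2, 59484653 to 59505020) stood at 407 CPM (396 to 418) against 67.8 (65.4 to 70.4) in control, and at 534 (507 to 562) against 231 (218 to 246) in IR. Its log2 ratios were 2.59 and 1.21. Both markers were higher in the Ccr7 positive cells of both libraries, but neither was absent from the Ccr7 negative cells.

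The share of cells with a UMI was read after thinning to 500 UMIs, while the Ccr7 positive and negative pools were those set at full depth, which was greater in control. In this way Lef1 was found in 46.7% of Ccr7 positive and 14.0% of Ccr7 negative control cells, and in 36.8% and 18.6% in IR. Lef1 was not limited to CD8 cells, and was found in 15.4% of control and 11.4% of IR DN cells. Dapl1 was found in 17.3% and 3.42% in control and in 21.6% and 9.50% in IR, against 0.107% and 0.177% of control and IR DN cells. Without thinning the Lef1 shares were 91.0% and 53.4% in control and 57.7% and 30.6% in IR, and the Dapl1 shares 52.7% and 11.0%, and 33.8% and 15.0%. Cd8b1, one chain of the CD8 co-receptor, was found in 49.8% and 47.8% of control and 40.8% and 39.4% of IR cells at 500 UMIs, and in 0.118% and 0.0759% of DN cells.

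**Figure D1:**
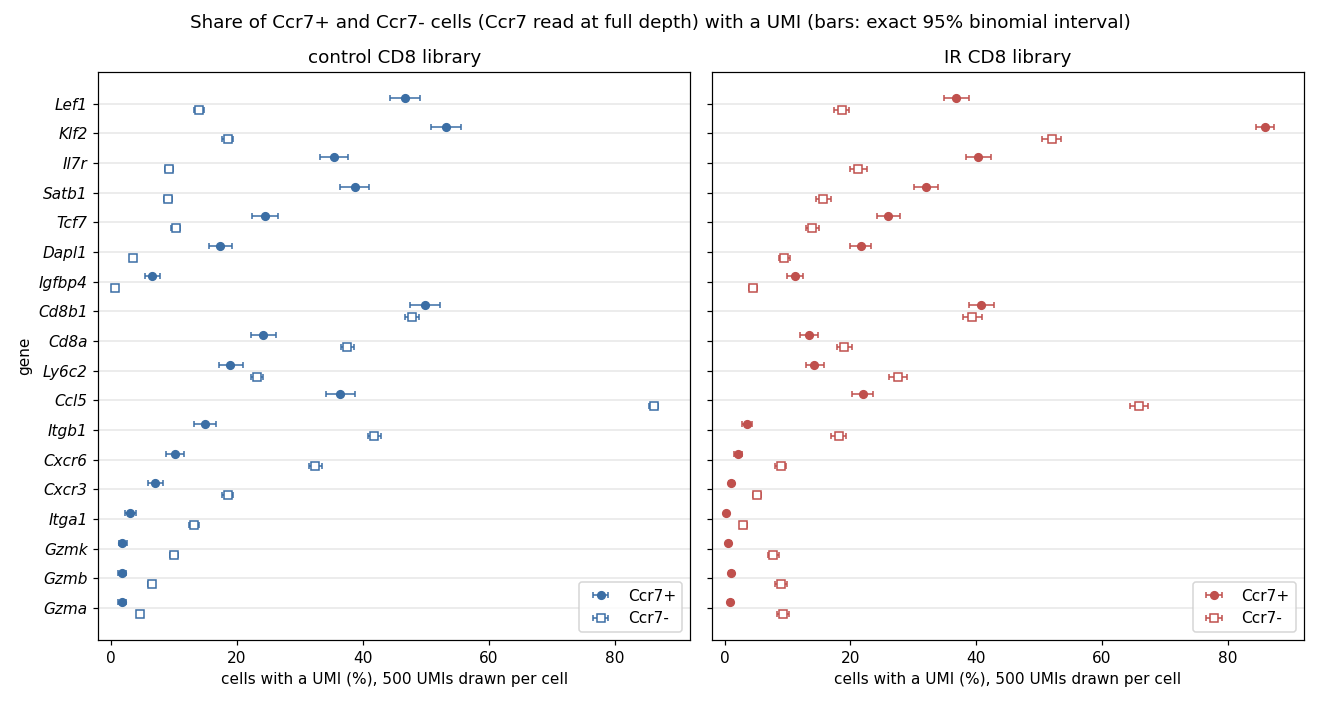
Share of cells (%) with at least 1 UMI of each gene on the vertical axis after thinning every cell to 500 UMIs, in Ccr7 positive (filled) and Ccr7 negative (open) Cd3 cells of the control and IR CD8 libraries, divided by Ccr7 at full depth, with exact 95% binomial intervals. Lef1 was at 46.7% against 14.0% in control and 36.8% against 18.6% in IR, Ccl5 was lower in the Ccr7 positive cells of both libraries, and Cd8b1 was nearly level.

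Genes of CD8 T cell identity were close in both pools. None of the 5 tested members was called in either library, with a median log2 ratio of -0.31 in control and -0.09 in IR. Cd8b1 stood at 1358 and 1345 CPM in Ccr7 positive and Ccr7 negative control cells, and at 1098 and 1134 in IR. Trbc2, a T cell receptor constant gene, stood at 2079 and 2061 CPM in control and 2310 and 2456 in IR. Cd8a was lower by less than 2-fold, at 600 CPM (587 to 614) against 927 (918 to 937) in control and 307 (287 to 329) against 462 (443 to 482) in IR. Cd4 was at 0 UMIs in the control and at 2 UMIs in the IR Ccr7 positive cells.

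Across all genes, 304 of 8960 tested (3.39%) were called higher and 296 (3.30%) lower in the Ccr7 positive cells of control. In IR, 186 of 8709 (2.14%) were higher and 352 (4.04%) lower. The same direction was called in both libraries for 95 of 8208 genes tested in both (1.16%) that were higher and for 170 (2.07%) that were lower. The 95 were 31.3% of the higher genes of control and 51.1% of those of IR, and the 170 were 57.4% and 48.3% of the lower genes. No gene was called in opposite directions. Of the 304 higher genes of control, 294 had a ratio above 1 in IR as well, and of the 296 lower genes 284 had a ratio below 1. Over all tested genes the median log2 ratio lay at 0.00 in control and 0.05 in IR. With the ribosomal, mitochondrial and Malat1 features kept in the totals, the counts of higher and lower genes were 183 and 391 in control and 50 and 335 in IR. In both libraries they were then 29 and 182, and after thinning every cell to 500 UMIs 55 and 192. Ratios were smaller in the shallow IR library for most of the higher genes named below.

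**Figure D2:**
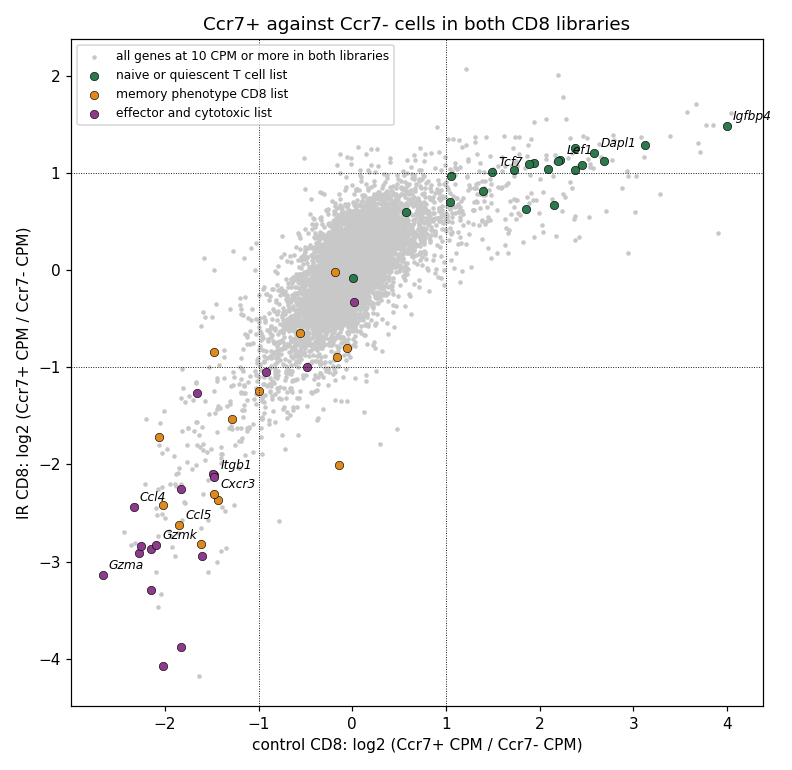
Log2 ratio of CPM in Ccr7 positive over Ccr7 negative cells for each gene, in the control CD8 library (horizontal axis) and the IR CD8 library (vertical axis), with gene lists coloured. Naive genes lie to the upper right, with Igfbp4 at 4.00 and 1.48, and effector genes to the lower left, with Gzma at -2.66 and -3.14.

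Naive and quiescence genes were higher as a group in the Ccr7 positive cells. Of the tested members, 19 of 21 were called higher in control (median log2 ratio 2.09) and 14 of 22 in IR (median 1.04), beside 3.39% and 2.14% of all genes, and none was lower. Many IR ratios lay near 2-fold, and 3 of the 14 calls in IR and 17 of the 19 in control were kept with the removed features in the totals. After thinning every cell to 500 UMIs, with Ccr7 read anew, 2 of the 14 and 13 of the 19 were kept. The 2 tested members not called in control were Foxo1, at 266 and 178 CPM, and Cd27, a costimulatory receptor, at 250 and 249. Among the transcription factors, Satb1, a chromatin organiser, stood at 1031 and 199 CPM in Ccr7 positive and Ccr7 negative control cells and at 824 and 346 in IR. Tcf7, the partner of Lef1, stood at 591 and 210 in control and 641 and 319 in IR. Bach2, which restrains effector differentiation, stood at 788 and 171 CPM in control and 610 and 281 in IR. All 3 were thus called higher in both libraries, with the lowest ratio for Tcf7 in IR and the highest, 2.38, for Satb1 in control.

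Klf2 stood at 1611 CPM (1589 to 1633) against 436 (430 to 442) in control and at 4949 (4865 to 5033) against 2321 (2277 to 2365) in IR. Il7r, the receptor chain for the survival cytokine IL-7, stood at 876 and 206 CPM in control and 1052 and 510 in IR. Bcl2, which protects from apoptosis, had log2 ratios of 1.04 and 0.70, and was called in control only, without a test of the difference. Id3, Foxp1, Txk and Myb were also called in control and had log2 ratios of 0.63 to 0.97 in IR. Igfbp4, an insulin-like growth factor binding protein, came first of the genes called in both libraries at 50 CPM or more, ranked by the smaller of the 2 log2 ratios. It stood at 121 CPM (115 to 127) against 7.57 (6.77 to 8.45) in control and 241 (223 to 260) against 86.5 (78.3 to 95.4) in IR.

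The first 12 genes by this ranking included Igfbp4, Fam241a, Slc49a4, Tdrp, Sh3bp5, Patj, Auts2, Ccr9, Ramp1, Satb1 and Atp1b1. Of these, Igfbp4, Satb1 and Ccr9 were in the lists. Auts2, a gene best known from neuronal development, stood at 151 and 11.6 CPM in control and 80.3 and 32.3 in IR. Ramp1, a co-receptor of the calcitonin gene-related peptide receptor, stood at 66.7 and 18.2 in control and 138 and 56.5 in IR. Patj, a scaffold of cell polarity complexes, stood at 116 and 23.2 CPM in control and 108 and 42.2 in IR. Atp1b1, the beta chain of the sodium pump, stood at 61.8 and 11.7 in control and 60.7 and 25.7 in IR. In every one of the 12 the ratio was larger in control than in IR. Igfbp4, Fam241a, Patj and Ramp1 stayed called in both libraries under all 16 alternatives, while the other named genes lost their call in IR after thinning to 500 UMIs. Atp1b1 also lost its call in control after thinning, at a log2 ratio of 0.51, and Auts2 its call in IR with no Cd3 UMI required.

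Of 17 tested lymph node homing genes, 4 were higher in control and 3 were higher and 1 lower in IR, beside 3.39% and 2.14% of all genes that were higher. The median log2 ratio of the list was 0.01 in control and 0.06 in IR. S1pr1 stood at 232 and 60.5 CPM in control and 517 and 240 in IR. Ccr9, the receptor for the gut and thymus chemokine CCL25, stood at 88.2 and 14.2 in control and 57.4 and 23.3 in IR. Both receptors were called higher in both libraries. Of the 3 higher calls of the list in IR, 2 were kept with the removed features in the totals, where S1pr1 fell short of 2-fold, and 0 after thinning to 500 UMIs. Rasgrp2, which activates integrins through RAP1, was called in control only, at 159 and 61.1 CPM, with 282 and 198 in IR. Itgal, the alpha chain of LFA-1, was lower in IR, at 97.6 and 210 CPM, and just missed the 2-fold limit in control, at 188 and 375. The ligand genes Ccl19 and Ccl21a had no UMI in the Ccr7 positive cells of either library. The chemokine receptor Cxcr4 was at 50.1 and 49.9 CPM in control and at 222 (205 to 240) and 146 (135 to 157) in IR, a log2 ratio of 0.61.

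Memory genes were lower in the Ccr7 positive cells, for 9 of 15 members in control (median log2 ratio -1.43) and 10 of 15 in IR (median -1.72). Background rates of lower calls were 3.30% and 4.04%. Ccl5, a chemokine stored by memory CD8 T cells, stood at 2438 CPM (2410 to 2465) against 8760 (8732 to 8788) in control and 3338 (3270 to 3407) against 20625 (20495 to 20755) in IR. Itgb1, the beta 1 integrin chain, stood at 473 and 1313 CPM in control and 119 and 511 in IR. Cxcr3, the receptor for inflammatory chemokines, stood at 140 CPM (133 to 146) against 388 (382 to 394) in control and 23.2 (17.8 to 29.7) against 115 (105 to 125) in IR. None of these genes was absent from the Ccr7 positive pools. Cd44, the classical surface marker of antigen experience, had log2 ratios of -0.99 and -1.24 and was called in IR only. In control, Eomes was close in both pools, at 61.3 and 63.5 CPM, as was Ly6c2, at 602 and 674. In IR, Ly6c2 stood at 572 and 1065, below the 2-fold limit.

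Effector and cytotoxic genes were lower for 14 of 17 members in control (median log2 ratio -1.83) and 15 of 17 in IR (median -2.83), beside 3.30% and 4.04% of all genes, and none was higher. After thinning to 500 UMIs, 12 of the 14 calls and 14 of the 15 were kept, and the control ratios of Klrg1 and S1pr5 turned to 0.0321 and 0.53. Gzma, a granzyme, stood at 46.9 CPM (43.2 to 50.9) against 297 (292 to 302) in control and 119 (106 to 133) against 1046 (1017 to 1076) in IR. Gzmb stood at 47.2 and 210 in control and 43.1 and 423 in IR, and Gzmk at 48.9 and 209 in control and 23.6 and 167 in IR. The granzyme values of the Ccr7 positive cells rested on few cells. In control, 128 cells held all 588 Gzma UMIs and 1 cell held 161 of them, and in IR 41 cells held all 323 and 1 cell held 83. Klrd1, the CD94 chain, did not differ in control, at 263 and 259 CPM by less than 2-fold, and stood at 635 and 797 in IR. Perforin (Prf1) stood at 93.0 and 130 in control and 21.7 and 43.3 in IR, and was called in neither.

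By the same rule as for the higher genes, the 12 lower genes were Gzma, Ccl4, Lgals3, Zeb2, Ccl3, Fgl2, Gzmb, Itga1, Gzmk, Hip1, S100a4 and Bcl2a1d. Bcl2a1d has near-identical neighbours in its family, so reads may have been divided among them. S100a4, a calcium-binding protein of migrating cells, stood at 239 and 1004 CPM in control and 109 and 724 in IR. Zeb2, a transcription factor of terminal effector cells, stood at 27.4 and 133 in control and 11.4 and 85.6 in IR. In each of the 12, the difference was larger in IR than in control.

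Tissue residency genes were lower for 7 of 12 members in control and 6 of 11 in IR, with medians of -1.30 and -1.27, beside 3.30% and 4.04% of all genes that were lower. Itga1, the collagen-binding CD49a, stood at 72.3 and 319 CPM in control and 7.73 and 57.0 in IR. Cxcr6, a receptor of liver and tissue memory cells, stood at 232 and 784 in control and 52.3 and 205 in IR. Itgae, which encodes CD103, went the other way and was called higher in control, at 66.4 and 16.5 CPM. It stood at 24.7 and 12.8 in IR, a log2 ratio of 0.94. CD103 binds E-cadherin on epithelium and is also made by naive CD8 T cells. Cd69, an early activation and retention marker, stood at 620 and 559 CPM in control and 699 and 546 in IR. Ahr was called higher in IR, at 19.9 and 9.42 CPM. It stood at 10.6 and 11.9 in control, where its log2 ratio became 1.203 after thinning to 500 UMIs.

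Coinhibitory receptor genes were lower for 8 of 11 members in control and 6 of 10 in IR, with medians of -1.65 and -1.38. Of all genes, 3.30% and 4.04% were lower, against which the counts of this and the next lists stand. Pdcd1, which encodes PD-1, stood at 20.9 and 77.0 CPM in control and 7.36 and 31.5 in IR. Ctla4 and Tox were called in neither library. Immediate early genes had no member called, with medians of 0.27 and 0.28. Heat shock genes had none called in control, and Hspa1a and Hspa1b were lower in IR, where they stood at 29.5 and 102 CPM and at 55.2 and 152. These are near-identical copies whose reads may be divided. Interferon-stimulated genes had no member called in control and Ifit1, Ifit3 and Isg15 lower in IR. Of 8 cell cycle genes, Mki67 was lower in control, at 49.9 and 102 CPM, and 5 were lower in IR.

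Pecam1, the CD31 adhesion molecule, which naive T cells also carry, stood at 218 and 65.8 CPM in control and 101 and 60.8 in IR, and made up nearly all of the summed level of the tubule and endothelial list (219 and 67.3, and 104 and 63.6). Of the B cell list, the summed level was 26.2 and 9.78 CPM in control and 41.6 and 44.3 in IR. In control 24 of the 52 Cd79a UMIs of the Ccr7 positive cells were in 1 barcode. The myeloid and dendritic list summed to 124 and 147 in control and 142 and 183 in IR, mostly Cst3, with S100a8 and Cd209a at 0 in the Ccr7 positive cells. The CD4 T cell list summed to 12.4 and 51.9, and 2.95 and 25.7, the NK list to 3.59 and 18.7, and 4.79 and 28.5, and the γδ and iNKT list to 10.1 and 13.6, and 2.95 and 8.99. A UMI of Cd79a, Ms4a1, Lyz2, Cst3, S100a8 or S100a9 was found in 41.2% of Ccr7 positive and 37.1% of Ccr7 negative control cells. In IR the shares were 14.2% and 15.0%. Most of these cells held Cst3, which was found in 708 control and 302 IR Ccr7 positive cells, against 7 and 41 for Ms4a1. With all barcodes holding a UMI of any gene of this set left out, 1029 control and 2053 IR Ccr7 positive cells remained. In that setting 348 genes were higher and 384 lower in control, 210 and 347 in IR, and 101 and 199 in both libraries.

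The cells just inside the rule, with 1 Ccr7 UMI, lay between those without Ccr7 and those with more for most genes in control. Lef1 stood at 296 CPM in cells with 0, 1172 with 1, 1336 with 2 and 1582 with 3 or more Ccr7 UMIs. Igfbp4 stood at 7.57, 79.5, 114 and 162, and Ccl5 at 8760, 3370, 2092 and 1767. In control, Lef1 and Igfbp4 were thus higher and Ccl5 lower with each step of the Ccr7 count, which the rule itself used. Median depth was higher with the Ccr7 count too, at 6459, 8767, 10042 and 10774 UMIs, and its part was not tested. In IR the step lay between 0 and 1 UMI. Lef1 stood at 420, 900, 931 and 949 CPM, Igfbp4 at 86.5, 241, 238 and 244, and Ccl5 at 20625, 3506, 3269 and 3122. Median depth was 1727, 1917, 1925 and 2077 UMIs. Cd8b1 stayed between 1345 and 1361 CPM in control and between 1053 and 1134 in IR over all 4 classes.

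**Figure D3:**
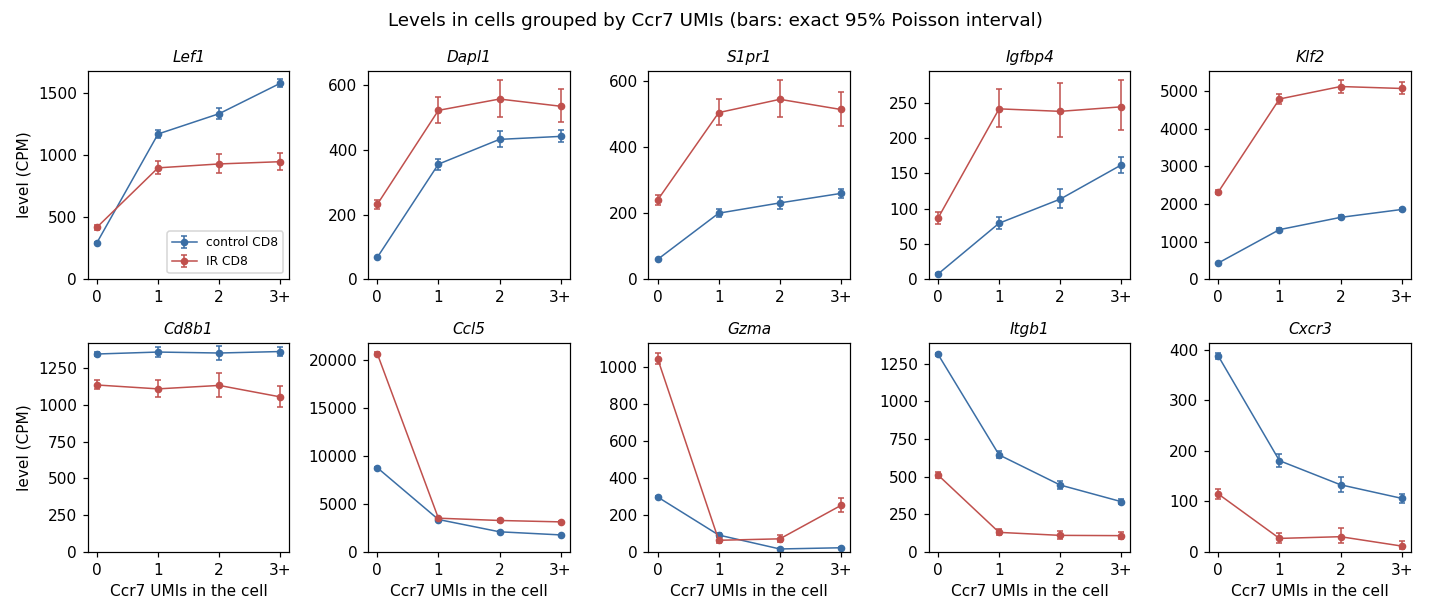
CPM of 10 genes in CD8 cells with 0, 1, 2 or 3 and more Ccr7 UMIs, in the control and IR libraries, with exact 95% Poisson intervals as bars. Lef1 ran from 296 to 1582 CPM in control and from 420 to 949 in IR, where cells with 1, 2 or more UMIs were close to each other, and Ccl5 was lower with more Ccr7 in both.

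Effector transcripts were also counted by cell. At 500 UMIs, a UMI of the effector genes Gzma, Gzmb, Gzmk, Cxcr3, Itga1 or Klrk1 was found in 15.4% (13.8 to 17.2) of control and 3.97% (3.22 to 4.83) of IR Ccr7 positive cells, against 47.8% and 28.9% of Ccr7 negative cells. Only the effector UMIs were thinned here. Ccr7 was read at full depth, which was greater in control, so the Ccr7 positive cells of the libraries were not chosen at equal depth. At full depth, 860 of the 1750 control cells (49.1%) and 176 of the 2393 IR cells (7.35%) had an effector UMI. The cells with such a UMI were deeper, with a median of 12437 UMIs against 8681, and 3079 against 1918 in IR. No cell type known to lack these genes was set beside them, so a UMI of free RNA and one of the cell itself cannot be told apart here.

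The control Ccr7 positive cells with an effector UMI had 3805 CPM of Ccl5, against 318 in those without. Their Itgb1 stood at 701 and 120 CPM, their Cxcr6 at 334 and 72.7, and their Lef1 at 979 and 1993. Itgae went with the cells without effector UMIs, at 104 CPM against 42.0. In IR, Ccl5 stood at 11914 and 2004 CPM, Itgb1 at 350 and 82.5, Lef1 at 462 and 993 and Klf2 at 2637 and 5308. Ccl5 and Itgb1, which were not used to divide these cells, were thus higher where an effector UMI was found, and Lef1 was lower. At full depth a Gzmk or Gzma UMI was found in 20.3% of control and 2.93% of IR Ccr7 positive cells, against 49.7% and 22.2% of Ccr7 negative cells. A Pdcd1 UMI was found in 7.89% and 0.627% of Ccr7 positive and in 21.6% and 3.26% of Ccr7 negative cells. These shares were not set to equal depth.

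T cell receptor variable segments were described as shares of the UMIs of their family, and those named here were chosen after their values were seen. Near-identical segments may share reads. Trbv3 made up 8.66% (7.07 to 10.5) of Trbv UMIs in Ccr7 positive and 27.5% (26.0 to 28.9) in Ccr7 negative control cells. In IR it made up 5.95% (3.76 to 8.86) and 12.4% (9.99 to 15.1). Counted by cells, Trbv3 was found in 10.6% and 29.8% of control and 6.83% and 13.3% of IR cells with any Trbv UMI. The Trbv3 share was thus lower in the Ccr7 positive cells of both libraries, by UMIs and by cells. Trbv12-2, in contrast, made up 17.5% and 14.4% of UMIs in control and 20.3% and 19.4% in IR. Trav4-4-dv10 made up 15.7% and 38.5% of Trav UMIs in control, but was found in 6.75% (4.82 to 9.15) and 10.9% (9.63 to 12.2) of cells with any Trav UMI, so its UMIs lay in fewer cells than their share would give. In IR it made up 1.37% and 1.59% of UMIs and was found in 1.72% and 1.51% of cells. The inverse Simpson index, which counts segments weighted by evenness, was 12.9 and 8.29 for Trbv in control and 11.2 and 11.3 in IR.

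**Figure D4:**
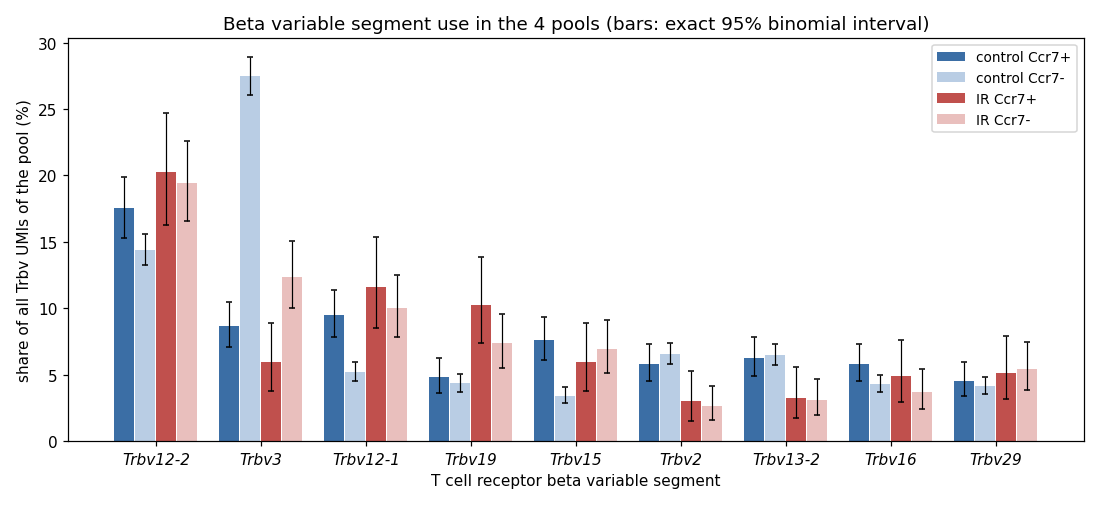
Share (%) of Trbv UMIs taken by 9 segments in Ccr7 positive and Ccr7 negative cells of the control and IR CD8 libraries, with exact 95% binomial intervals as error bars. Trbv3 took 27.5% in Ccr7 negative control cells and 8.66% in Ccr7 positive control cells.

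The IR Ccr7 positive cells were last set beside the control Ccr7 positive cells. The libraries also differed in depth and in the Cell Ranger version of the file headers, 5.0.1 for control and 6.0.1 for IR, so condition, version and library cannot be told apart. Of 9092 genes tested, 682 (7.50%) were called higher and 1566 (17.2%) lower in IR, around a median log2 ratio of -0.37. The Ccr7 negative cells gave 689 (7.55%) and 1656 (18.1%) of 9130 around a median of -0.39. With the removed features kept, the counts were 303 and 2933 in Ccr7 positive and 332 and 3069 in Ccr7 negative cells, with TMM scaling 853 and 1037, and 801 and 1335, and after centring by intronic length 902 and 540, and 903 and 463. These 2 comparisons share no cells but share both libraries. The median log2 ratio ran from 0.16 in the tenth of genes with the least intronic sequence to -0.88 in the tenth with the most, and from 0.20 to -0.90 in the Ccr7 negative cells. Within a library it ran only from -0.03 to 0.10 in control and from -0.02 to 0.12 in IR.

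Naive genes varied in direction between the Ccr7 positive cells of IR and control. Of 22 tested, 3 were higher (S1pr1, Klf2 and Ramp3) and none lower, with a median of -0.09 beside the -0.37 of all genes. Ramp3 had few UMIs, and its log2 ratio of 1.35 turned to -0.0419 after thinning to 500 UMIs. With the removed features kept in the totals, 1 of the 3 calls was kept. Foxp1, Myb and Cd27 had ratios of -0.82, -0.88 and -0.83, short of the 2-fold limit. In the Ccr7 negative cells 9 of 21 were higher in IR, with a median of 0.93. Over all genes 7.50% and 7.55% were called higher in the Ccr7 positive and Ccr7 negative cells. Dapl1 had a log2 ratio of 0.39 in the Ccr7 positive and 1.77 in the Ccr7 negative cells. Igfbp4 stood at 241 and 121 CPM in the Ccr7 positive cells of IR and control and at 86.5 and 7.57 in the Ccr7 negative cells. The IR Ccr7 negative cells thus held higher levels of these naive transcripts than those of control. The median depth of these pools was 1727 and 6459 UMIs, and its part was not tested. Lef1 stood at -0.58 and 0.51. Over all Cd3 cells of the CD8 libraries, which the Ccr7 rule does not divide, Ccr7 was 7.99-fold higher in IR, at 80.4 and 643 CPM. Over the same cells Dapl1 was 2.36-fold, Igfbp4 4.30-fold, Klf2 4.67-fold and Lef1 1.12-fold higher in IR, as was Ccl5, by 1.95-fold. With the removed features kept in the totals these ratios were 1.79, 3.26, 3.55 and 1.48 for Dapl1, Igfbp4, Klf2 and Ccl5, and Lef1 turned to 0.847, lower in IR. Of the naive list, Cd27, Foxo1 and Foxp1 were lower in IR over these cells, at ratios of 0.585, 0.710 and 0.790, and all other members were higher. With the removed features kept, Bach2, Bcl2 and Myb also turned lower, at 0.979, 0.796 and 0.788. At 500 UMIs, Lef1 was found in 19.9% of control and 25.4% of IR CD8 cells and Dapl1 in 5.93% and 14.0%, beside the DN shares given above.

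Memory genes were lower in IR Ccr7 positive cells for 8 of 15 members (median -1.13), and for 5 of 15 in the Ccr7 negative cells (median -0.63), where Ccl5 was higher. Over all genes, 17.2% and 18.1% were lower and 7.50% and 7.55% higher, around medians of -0.37 and -0.39. Residency genes were lower for 6 of 11 in the Ccr7 positive (median -1.09) and 5 of 12 in the Ccr7 negative cells (median -0.63), and coinhibitory genes for 6 of 8 (median -1.36) and 9 of 11 (median -1.26). Among effector genes 5 of 14 were lower and Gzma and Klrd1 were higher in the Ccr7 positive cells (median -0.48), and 3 were lower and 3 higher of 17 in the Ccr7 negative cells (median 0.29). After centring by intronic length, the lower calls kept in the Ccr7 positive cells were 7 of 8 memory, 3 of 6 residency, 2 of 6 coinhibitory and 3 of 5 effector genes. The Gzma ratio of 1.34 turned to -0.94 when cells were thinned to 500 UMIs and to -0.37 as a mean over cells. Cxcr4 was higher in IR, at 222 and 50.1 CPM in the Ccr7 positive cells, with a log2 ratio of 2.15, and 1.55 in the Ccr7 negative cells. Immediate early genes were higher for 6 of 12 members in the Ccr7 positive and 6 of 12 in the Ccr7 negative cells, with medians of 0.96 and 0.94. Junb, an AP-1 subunit, stood at 5971 CPM in IR and 1978 in control Ccr7 positive cells. Heat shock genes were lower for 6 of 9 in both, with medians of -1.74 and -1.83. Hspa1a stood at 29.5 and 1054 CPM. Both groups thus differed the same way in the Ccr7 negative cells.

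The 8 genes with the largest higher ratios were Hbb-bs, Hba-a2, Srrm4, Hba-a1, Hbb-bt, Gm50306, Gm49497 and Gm765, with log2 ratios of 8.19 to 12.11. These ratios rest on 0 to 20 UMIs in the control Ccr7 positive cells, with Hbb-bt at 0, and their size is uncertain. After thinning to 500 UMIs the ratios were 2.67 for Srrm4, 2.14 for Gm49497, 2.65 for Gm765 and 5.19 for Gm50306. The haemoglobin values came from 1 barcode, which held 3005 of the 3063 haemoglobin UMIs of the IR Ccr7 positive cells, where the next held 2. The summed erythroid level was 1128 CPM there, against 18.6 in the IR Ccr7 negative cells and 0.638 in the control Ccr7 positive cells. The other 4 were as high in the Ccr7 negative cells of IR, with Gm50306 at 586 and 576 CPM and at 1.60 and 1.43 in control. Gm50306 and Gm49497 are annotated as long noncoding RNAs. The 8 largest lower ratios were those of Hspa1a, Hspa1b, Bag3, Itga1, Hip1, Cmss1, Kcnq1ot1 and Hsph1, from -2.81 to -5.16. Kcnq1ot1 is an antisense transcript, and the sources used here do not give whether strand was used in counting. Itga1 was also lower in the Ccr7 negative cells of IR, with a log2 ratio of -2.48.

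**Figure D5:**
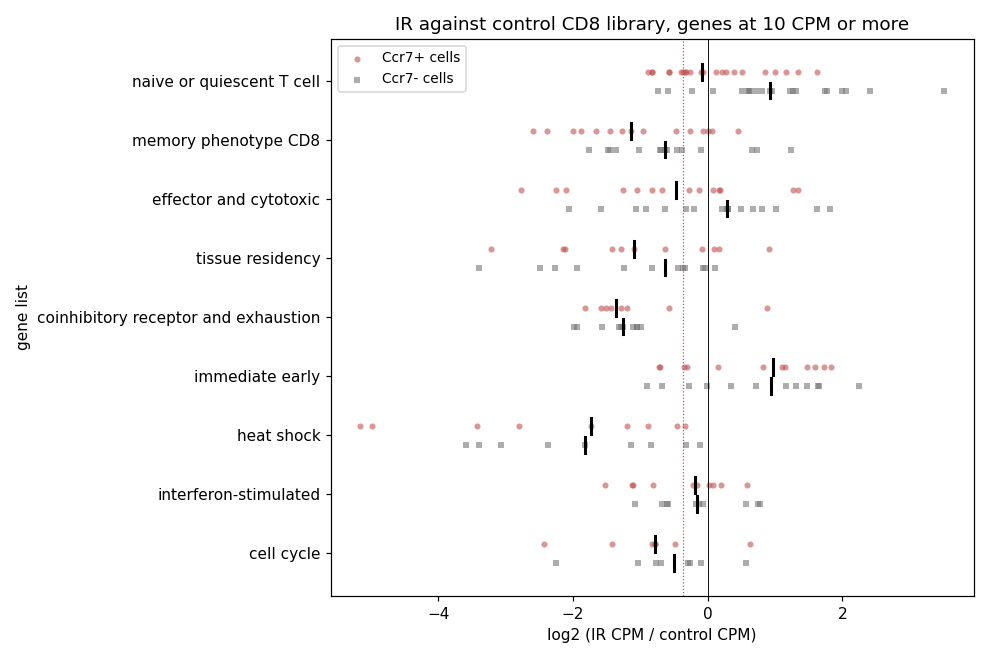
Log2 ratio of IR over control CPM for the genes of 9 lists, in Ccr7 positive and Ccr7 negative CD8 cells, with black bars at list medians and a dotted line at the median of all genes in the Ccr7 positive cells (-0.37). Naive genes had a median of -0.09 in the Ccr7 positive and 0.93 in the Ccr7 negative cells, and heat shock genes had -1.74 and -1.83.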

How the data were processed

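Single-cell RNA sequencing of CD8 T cells sorted from control and IR kidneys was analysed, with 1 library per group. The deposited matrices hold raw UMI counts. The authors made these counts from 10x Genomics libraries with Cell Ranger on mm10 and did not normalize them. The labels name Cell Ranger 6.0.1 and the file headers 5.0.1 for control and 6.0.1 for IR libraries. The study states that default settings were used, and the sources used here do not name the counting of intronic reads.

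Samples were grouped by their titles. Barcodes were filtered as in the study (500 genes, 20% mitochondrial UMIs), but the deepest 5% of barcodes were kept here, unlike in the study, and no doublet caller was run. In all, 99 mitochondrial, ribosomal protein and Malat1 features were removed. Counts were summed per pool and scaled to CPM (Python 3.11.15, numpy 2.4.6, scipy 1.17.1, pandas 2.3.3, matplotlib 3.10.9). A count of 0 was set to 3 counts per pool, or 0.239 and 0.0706 CPM in the control Ccr7 positive and negative pools and 1.10 and 0.642 CPM in those of IR. Ccr7, Cd3d, Cd3e and Cd3g were left out of the tested genes. Intervals are exact 95% Poisson or Clopper-Pearson intervals and cover counting error only. Shares were computed after thinning each cell without replacement to 500 UMIs of the retained features, and 0 Cd3 cells were shallower. The calling rule was checked on simulated counts.

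The members, gene lists and rules were chosen with earlier results of these data known. Genes named in the text were members of the lists, the 12 genes in each direction called in both libraries at 50 CPM or more with the largest smaller ratio, and the 8 genes in each direction with the largest ratio of IR over control. Genes and segments outside these are said to be chosen after their values were seen. GENCODE M21 (GRCm38) gave gene coordinates and intronic lengths, and RefSeq gave promoters. Some genes are not reported by name here, while list counts include every member. Alternatives included TMM scaling (edgeR 4.0.16, R 4.3.3), other CPM limits, filters and thinning. Centring ratios in 20 bins of intronic length and leaving out the haemoglobin barcode were added after seeing the data.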

Additional observations from a re-analysis of the deposited data

Results flagged for a closer look

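A Ccr7 signal was present in barcodes that the comparisons did not use because they had no Cd3d, Cd3e or Cd3g UMI. In the IR CD8 library 161 of 414 such barcodes (38.9%, exact 95% interval 34.2 to 43.8) had a Ccr7 UMI. In the control CD8 library 10 of 166 (6.02%, 2.93 to 10.8) had one. Of the barcodes with a Cd3 UMI, 37.3% in IR and 18.1% in control had one. At 500 UMIs the shares were 29.0% and 4.22% without a Cd3 UMI, and 25.0% and 3.72% with one. These 161 barcodes had a median of 1560 UMIs, with 585 CPM of Cd8b1, 1897 of Trbc2, 1215 of Lef1 and 390 of Ccl5. Cd79a was found in 1 of them. The 253 IR barcodes with neither a Cd3 nor a Ccr7 UMI had 301 CPM of Cd8b1, 620 of Trbc2, 490 of Lef1 and 3047 of Ccl5.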

How the results depend on the processing

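No paired analysis was possible because each group had 1 library, and for the same reason no replicate could be left out. Without a minimum CPM, 1934 genes were higher and 1390 lower in control Ccr7 positive cells, 859 and 1481 in IR, 298 and 464 in both libraries, 2405 and 2678 in IR over control Ccr7 positive cells, and 4227 and 2650 in Ccr7 negative cells. With a minimum of 50 CPM these were 127 and 134, 65 and 97, 44 and 58, 312 and 751, and 287 and 895. With the removed features kept, 183 genes were higher in control, 50 in IR and 29 in both, and in IR over control 303 were higher and 2933 lower in Ccr7 positive and 332 and 3069 in Ccr7 negative cells, with the median of all genes shifted by -0.19, -0.21, -0.38 and -0.36. After thinning to 500 UMIs, 786 genes were higher and 930 lower in control and 55 were higher in both. With no Cd3 UMI required, 548 were lower in IR. TMM scaling left 1037 lower in IR over control Ccr7 positive cells. Centring by intronic length left 540, and 463 in Ccr7 negative cells. The share of Ccr7 positive cells was 18.1% and 37.3% without thinning, 5.13% for control at 1000 UMIs, and 0.330% and 8.55% for 2 or more Ccr7 UMIs.

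Thinning to 500 UMIs reversed, in control, Klrg1 (0.0321), S1pr5 (0.53), Ahr (1.203), Usp18 (-1.06), Zbtb7b (1.07), Itgax (1.19) and Tyrobp (0.89), and in IR over control Treml2 (1.12), Ramp3 (-0.0419), Ccl4 (-1.66), Usp18 (0.0125) and Gzma (-0.94), and a mean over cells gave Gzma -0.37. Without the top 5% of barcodes the log2 ratio in IR was -0.15 for Hba-a1 and -1.47 for Hbb-bt, and without the haemoglobin barcode -0.34 and -0.54. Without it Hbb-bs had a log2 ratio of 5.96 in IR over control. The cause of these changes was not tested. All 12 lower genes kept their call in both libraries under the 16 settings.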
